A study of Mus musculus with 9 samples.

Results

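Collagen chains and the enzymes and helpers that process them were followed in ribosome footprints of 3 mouse striatal cell lines, called control, HD-het and HD-homo. Members were the rows of the deposited count table whose symbol was that of a collagen chain (such as Col1a1), of a prolyl 4-hydroxylase alpha subunit (P4ha1 to P4ha3), of a lysyl hydroxylase (Plod1 to Plod3) or of a lysyl oxidase (Lox and Loxl1 to Loxl4), together with Serpinh1, Pcolce and Bmp1. This gave 58 of 36410 rows, of which 44 were chains and 14 were enzymes or helpers. Of these, 46 passed the filter on low counts and were tested (32 chains and all 14 enzymes and helpers), 12 were not, and Col13a1 held a count of 0 in all 9 libraries.

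Ribosome profiling sequences the mRNA fragments that ribosomes shield from nuclease, so a footprint level follows how many ribosomes sit on an mRNA. In control cells (STHdhQ7/Q7) the knock-in Htt exon 1 is wild-type, and the labels give it 7 repeats, which they call Glu. HD-het cells (STHdhQ7/Q111) are heterozygous and HD-homo cells (STHdhQ111/Q111) homozygous for a mutant exon to which the labels give 111 repeats. The paper describes the mutation as an expanded CAG tract for polyglutamine, so the repeats are of glutamine (Gln, Q) and not of glutamate (Glu). All are immortalized mouse striatal cells of strain C57/BL6, and all were given cycloheximide, which holds elongating ribosomes in place, for 10 min. Each line gave 3 libraries from independent rounds of culture. Each genotype was 1 line, so genotype and line cannot be told apart, and an immortalized line does not stand for striatal tissue.

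Collagens are made of chains that wind around each other in a triple helix. The chains enter the endoplasmic reticulum as they are translated, where prolines and lysines are hydroxylated and the chaperone HSP47, encoded by Serpinh1, holds the helix. After export the propeptides are cut off, and lysyl oxidases crosslink the fibrils or networks. In the brain most collagen lies in basement membranes of vessels and meninges, while fibrillar collagen is typical of fibroblasts.

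Library totals ran from 22504543 to 41888701 counts. Levels are given as CPM, counts per 1e6 of the TMM-scaled library total. A count of 3, the limit that a count of 0 allows, stood for 0.0716 to 0.133 per 1e6 counts of the unscaled total. Such floors and all intervals cover counting error only. Markers of the labelled cell type were read in each line. Ppp1r1b (DARPP-32, a marker of striatal projection neurons) lay between 3.30 and 16.1 CPM over all libraries, and Drd1 and Drd2 were at 0 in all 9. Nes (nestin, of neural precursors) ran from 307 to 467 CPM for control, from 1028 to 1175 for HD-het and from 6.43 to 7.65 for HD-homo cells. In the same lists, Foxp1 lay between 32.4 and 61.9 CPM over all libraries, and Dlx2 had means of 9.25, 2.11 and 19.9 CPM and Dlx1 of 2.71, 1.83 and 4.02 CPM in control, HD-het and HD-homo, so the markers of a list did not share 1 order of lines.

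Several libraries stood apart on these genes. Control replicate 3 held the lowest value of the 3 control libraries for 42 of the 46 tested members, against 36.4% of all tested genes. Control replicate 2 was the highest of its line for 37, against 33.0% of all tested genes. HD-homo replicate 2 was the lowest of its line for 34 members, against 37.1%, and HD-het replicate 3 the highest of its line for 32, against 42.1%. Counts of members called without each of these libraries are given beside the main counts.

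The promoters shown are those of the members with a mean over 10 CPM that were highest in HD-homo cells and had an entry in the promoter table. The other such member, Col5a2, had none. The sequences are RefSeq's for mouse assembly GRCm38.p6, the 250 bases before the start of the transcript, written along the gene's own strand. Capitals mark CCAAT or GGGCGG on either strand (ATTGG and CCGCCC are their reverse complements) and TATAAA on the gene's strand, and no marked motif overlaps another. They lie at chr6:4505368-4505617 (plus strand, Col1a2), chr10:76726045-76726294 (minus strand, Col6a1), chr10:76623631-76623880 (minus strand, the outer of the listed starts of Col6a2), chr19:42612807-42613056 (minus strand, Loxl4) and chr11:54100674-54100923 (plus strand, P4ha2).
Col1a2: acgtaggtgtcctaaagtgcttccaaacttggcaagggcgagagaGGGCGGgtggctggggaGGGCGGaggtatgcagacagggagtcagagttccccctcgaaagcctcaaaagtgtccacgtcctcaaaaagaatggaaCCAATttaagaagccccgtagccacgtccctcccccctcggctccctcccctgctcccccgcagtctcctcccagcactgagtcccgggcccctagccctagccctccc
Col6a1: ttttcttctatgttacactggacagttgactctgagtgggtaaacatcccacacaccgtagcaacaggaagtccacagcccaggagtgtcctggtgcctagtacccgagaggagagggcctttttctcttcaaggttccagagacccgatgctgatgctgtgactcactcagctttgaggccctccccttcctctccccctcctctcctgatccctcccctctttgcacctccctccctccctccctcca
Col6a2: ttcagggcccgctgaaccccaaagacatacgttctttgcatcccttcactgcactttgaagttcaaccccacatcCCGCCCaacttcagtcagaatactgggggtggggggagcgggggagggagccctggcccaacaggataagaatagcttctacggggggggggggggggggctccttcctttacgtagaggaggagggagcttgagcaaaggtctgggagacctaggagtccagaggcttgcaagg
Loxl4: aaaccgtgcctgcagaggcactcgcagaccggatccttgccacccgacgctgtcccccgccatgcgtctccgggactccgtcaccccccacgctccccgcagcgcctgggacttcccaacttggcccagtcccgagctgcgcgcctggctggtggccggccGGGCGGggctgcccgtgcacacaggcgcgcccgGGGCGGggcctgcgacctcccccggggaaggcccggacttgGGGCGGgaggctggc
P4ha2: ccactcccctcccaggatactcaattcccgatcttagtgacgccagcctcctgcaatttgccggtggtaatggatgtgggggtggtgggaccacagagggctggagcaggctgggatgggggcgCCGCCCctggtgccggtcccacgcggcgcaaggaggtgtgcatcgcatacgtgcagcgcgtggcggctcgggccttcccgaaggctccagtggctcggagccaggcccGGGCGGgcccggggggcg
The Col1a2 window held 1 CCAAT and 2 GGGCGG, the Col6a1 window held no marked motif, and the Col6a2 window held 1 GGGCGG. Loxl4 had 3 and P4ha2 had 2 GGGCGG. In all, 43 of the 58 members had an entry, with 46 promoters. GGGCGG was in 63.0% of these and in 32.7% of all 32851 promoters of the same length, CCAAT in 30.4% against 33.8%, and TATAAA in 10.9% against 7.59%. A match is a description of letters and not a site.

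Glycine recurs at a fixed step in the triple helix, and the coding sequences of the chains were rich in its codons. Only the share of codons was computed, not their positions. The chains had a median of 24.2% glycine codons and 16.2% proline codons, against 6.30% and 5.52% over 16080 protein-coding genes with counts. Among the chains the glycine share ran from 9.07% (Col6a3) to 31.2% (Col9a3). The enzymes and helpers had a median of 7.28%.

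In HD-het cells most members had more footprints than in control cells. Of the 46 tested, 41 were higher and 3 were lower (quasi-likelihood F test of edgeR, adjusted p under 0.05 over all 12678 genes tested), while 31.0% of all tested genes were higher and 29.1% lower. A change of at least 2-fold was called for 33 higher and 3 lower members, against 13.9% and 6.91% of all genes. The median log2 fold change was 1.81 over the tested members and 0.02 over all genes. The libraries of both lines did not overlap for 45 members, against 71.2% of all genes. The counts were 39 and 3 without control replicate 3, 42 and 3 without control replicate 2, and 39 and 3 without HD-het replicate 3.

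In HD-homo cells the members split in direction, as did all tested genes. Against control, 19 (41.3%) were higher and 12 (26.1%) lower, where 23.3% and 22.3% of all genes were called. The share of members called lower was thus near that of all genes. At least 2-fold, 16 (34.8%) were higher and 8 (17.4%) lower, against 8.94% and 8.27%. The median log2 fold change was 0.33, and 30 members (65.2%) did not overlap, against 55.5% of all genes. The counts were 18 higher and 16 lower without control replicate 3, 21 and 10 without control replicate 2, and 20 and 10 without HD-homo replicate 2. Against HD-het, 8 members were higher and 34 lower in HD-homo cells, where 34.6% and 32.8% of all genes were called. By at least 2-fold there were 7 and 32, against 11.1% and 16.2%, with a median of -1.48, and 43 members did not overlap, against 69.5%. The counts were 8 and 34 without HD-het replicate 3 and also without HD-homo replicate 2. The comparisons share libraries, so their counts are not independent of each other.

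The order of the lines was thus not that of the number of Q111 alleles for most members. A difference among the 3 lines was called for all 46 tested members and for 78.4% of all tested genes. HD-het had the highest mean for 36 members, HD-homo for 8 (Col1a2, Col5a2, Col6a1, Col6a2, Col10a1, Col28a1, Loxl4 and P4ha2) and control for 2 (Col4a3 and Col18a1). The lowest mean was that of control for 22 members, of HD-homo for 22 and of HD-het for 2 (Col5a2 and Loxl4). The order of lines was not counted over all tested genes, so whether it is particular to the members is not known.

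**Figure D1:**
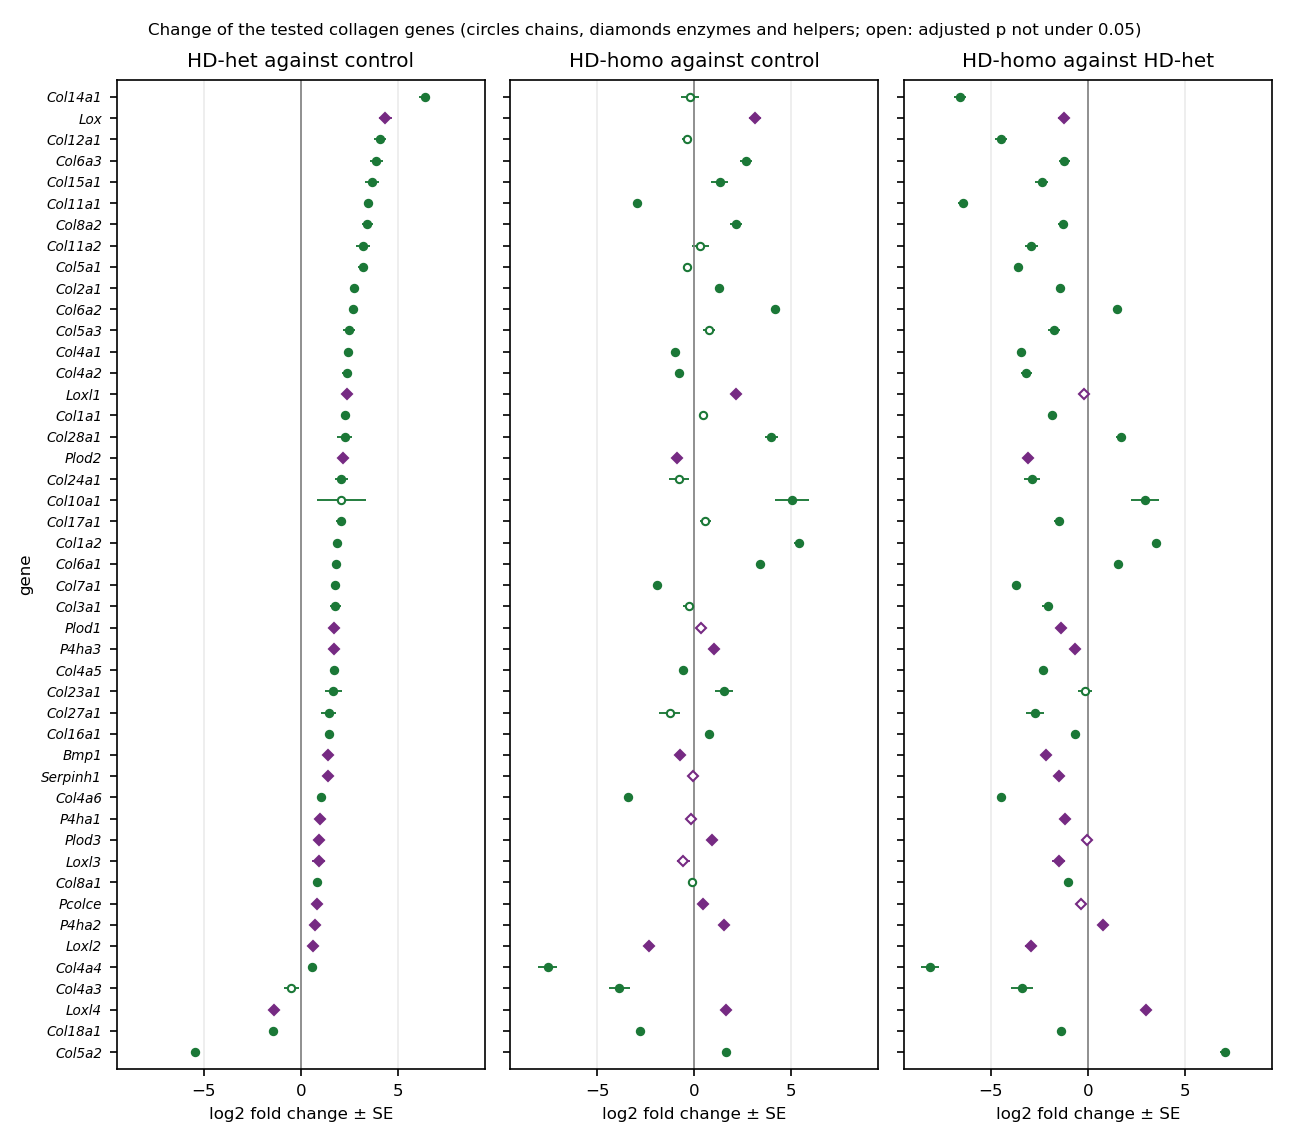
Log2 fold change (x axis, bars are the SE of the fit of 9 libraries) of the 46 tested members (y axis, ordered by the change in HD-het against control) in the 3 comparisons, with chains as circles and enzymes and helpers as diamonds, open where adjusted p was not under 0.05. In the left panel 41 members lie to the right of 0 as called changes, in the right panel 34 lie to the left, and the middle panel is split into 19 and 12. The points of several members rest on few counts in 1 or more lines, among them Col4a3, Col4a4, Col10a1, Col23a1, Col24a1, Col27a1 and Col28a1.

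Of all footprints, the members took 0.881%, 0.999% and 0.587% in the control libraries. They took 3.56%, 3.94% and 4.38% in HD-het and 1.60%, 1.23% and 1.42% in HD-homo cells. No 2 lines overlapped, and the mean was 4.81-fold that of control in HD-het and 1.72-fold in HD-homo cells. An exact two-sided permutation test gave p = 0.10 for each pair of lines, the smallest that 3 libraries against 3 allow. The chains held 0.629% ± 0.172 (SD, n = 3) of the counts for control, 3.32% ± 0.388 for HD-het and 1.08% ± 0.121 for HD-homo cells. In bulk counts, more cells of a kind and more footprints per cell cannot be told apart.

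Col1a1, the alpha 1 chain of type I collagen, was the most abundant member in every line. Per kilobase of coding sequence it stood at 767 CPM for control, 3790.4 for HD-het and 1048 for HD-homo. It held 53.3% ± 0.60 of the chains' counts for control, 48.4% ± 3.06 for HD-het and 43.2% ± 1.60 for HD-homo cells (SD, n = 3). The next members per kilobase in control were Serpinh1 (404 CPM) and Pcolce (398 CPM). Lox came next to Col1a1 in HD-het (1998 CPM) and in HD-homo cells (842 CPM).

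Fibrillar chains form the banded fibrils of connective tissue. All 11 were tested, and 10 were higher and 1 lower in HD-het against control. In HD-homo cells 3 were higher and 1 lower against control, and 2 were higher and 9 lower against HD-het. Here and for each family below, the shares of all genes called higher and lower stand beside the counts. They were 31.0% and 29.1%, 23.3% and 22.3%, and 34.6% and 32.8% in the same order of comparisons. Col1a1 counted 3585, 4166 and 2279.9 CPM in control, 14709.5, 16970.0 and 17888 in HD-het, and 5106, 4128 and 4471 in HD-homo cells. All HD-het libraries were above the others, while control and HD-homo overlapped. The log2 fold change was 2.30 ± 0.19 (SE, adjusted p = 2.58e-06) in HD-het and 0.45 ± 0.18 (adjusted p = 0.0639) in HD-homo cells against control. The latter passed the threshold without control replicate 2 (0.64, adjusted p = 0.0177), with library totals alone (0.48, adjusted p = 0.0313) and with GC and length offsets (0.60, adjusted p = 0.0212).

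Col1a2, the alpha 2 chain of type I collagen, did not follow Col1a1. Its level was 26.4, 27.9 and 17.7 CPM in control, 79.4, 119.5 and 67.9 in HD-het, and 1172, 904 and 1007 in HD-homo cells. No libraries of different lines overlapped, and the HD-homo libraries were the high ones. It was higher by 1.89 ± 0.22 on the log2 scale in HD-het (adjusted p = 2.73e-05) and by 5.41 ± 0.25 in HD-homo cells (adjusted p = 2.07e-08) against control, and by 3.53 ± 0.23 in HD-homo against HD-het (adjusted p = 1.99e-07).

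Type V collagen is a minor component that is built into type I fibrils. Col5a1 was at 269, 293 and 168 CPM in control, 1955, 2200.2 and 2523 in HD-het, and 233, 153 and 171 in HD-homo cells. Col5a2 went the other way, with 446, 523 and 294 CPM in control, 11, 7.81 and 10.3 in HD-het, and 1558, 1147 and 1195 in HD-homo cells. Col5a1 was therefore highest and Col5a2 lowest in HD-het cells, in every library of that line. Col5a1 changed by 3.19 ± 0.22 in HD-het against control (adjusted p = 7.46e-07), and by -0.39 ± 0.20 in HD-homo against control (adjusted p = 0.144, but -0.60 and 0.0162 without control replicate 3, and -0.59 and 0.0418 without HD-homo replicate 1). Col5a2 fell by 5.45 ± 0.24 on the log2 scale in HD-het (adjusted p = 3.27e-08) and was higher by 1.63 ± 0.20 in HD-homo cells (adjusted p = 5.48e-05) against control. The other type V chain, Col5a3, was at 27.2, 30.3 and 11.8 CPM in control, 106, 103 and 183 in HD-het, and 43.8, 31.6 and 41.3 in HD-homo cells. Its highest line was HD-het too (log2 2.49 ± 0.32, adjusted p = 5.94e-05), and the change of 0.74 ± 0.31 in HD-homo against control had an adjusted p of 0.0736, which fell to 0.0427 without control replicate 2, to 0.0399 with library totals alone and to 0.0367 with GC and length offsets.

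Col5a2 has a neighbour among the members. On chromosome 1, Col3a1 (45311538 to 45349706) and Col5a2 (45374331 to 45503282) lie 24624 bases apart. Col3a1, the chain of type III collagen of skin and vessels, counted 481, 543 and 269.8 CPM in control, 1046, 1284 and 2119.6 in HD-het, and 389, 317 and 348 in HD-homo cells. It rose in HD-het cells, where its neighbour fell, by 1.78 ± 0.28 (adjusted p = 0.000226), and gave -0.29 ± 0.27 in HD-homo cells (adjusted p = 0.404) against control.

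Of the cartilage collagens, the chains of types II and XI had footprints in every line, at levels that differed widely between chains and lines. The type IX chains Col9a1, Col9a2 and Col9a3 held at most 6 counts in any library and were not tested. Col11a1, the alpha 1 chain of type XI collagen, was at 50.9, 56.8 and 30.4 CPM in control, 453, 489 and 609 in HD-het, and 6.54, 4.78 and 6.48 in HD-homo cells. The lines did not overlap, and HD-homo was the lowest. The log2 fold change was 3.49 ± 0.22 in HD-het (adjusted p = 3.94e-07) and -2.95 ± 0.23 in HD-homo cells (adjusted p = 1.41e-06) against control, and -6.44 ± 0.26 between them (adjusted p = 5.13e-09). Col2a1, the chain of type II collagen, counted 25.0, 22.5 and 17.3 CPM in control, 134, 151 and 141 in HD-het, and 46.9, 42.1 and 67.7 in HD-homo cells. It was higher in both mutant lines, by 2.72 ± 0.18 (adjusted p = 5.89e-07) and 1.27 ± 0.18 (adjusted p = 0.000127). Col11a2 had line means of 0.314, 2.99 and 0.369 CPM, with a rise of 3.22 ± 0.35 in HD-het against control (adjusted p = 1.76e-05). Its HD-homo change of 0.31 ± 0.45 had an adjusted p of 0.610 and was -0.24 without HD-homo replicate 1.

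**Figure D2:**
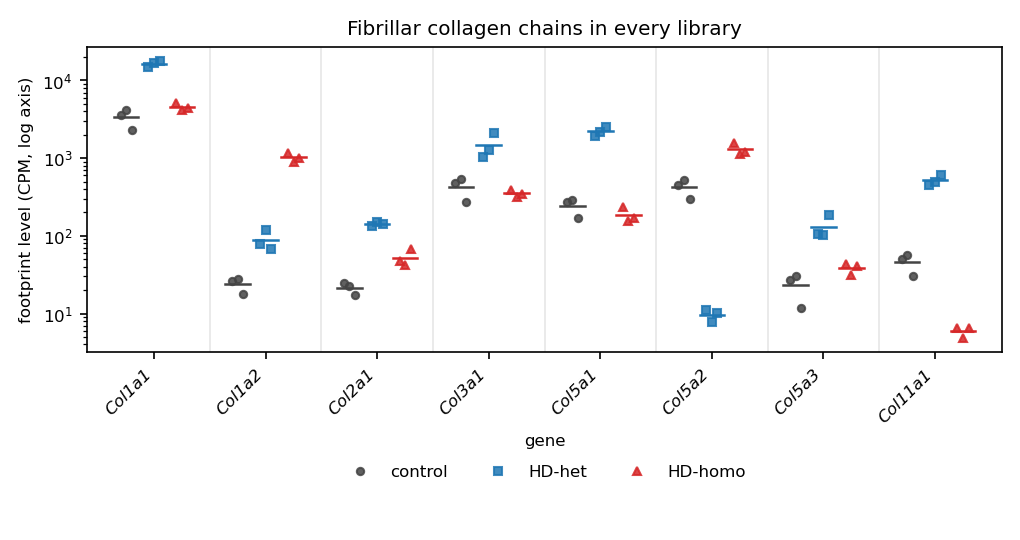
Footprint level (CPM, log axis) of the 8 fibrillar chains with a mean of at least 10 CPM in a line, with 1 point per library and a line at the mean of the 3 libraries. Col5a2 is at 7.81 to 11 CPM in HD-het and Col1a2 at 904 to 1172 in HD-homo cells, while the other 6 chains are highest in HD-het.

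How the chains of 1 molecule stood to each other was computed as the ratio of footprints per codon. Type I collagen is mostly a heterotrimer with more alpha 1 than alpha 2 chains. The ratio of Col1a1 to Col1a2 was 128, 141 and 121 in the control libraries, 175, 134 and 249 in HD-het, and 4.11, 4.31 and 4.19 in HD-homo cells. Control and HD-het overlapped and HD-homo was below both. For Col5a1 to Col5a2 the ratio was 0.490, 0.456 and 0.467 in control, 145, 229 and 200.2 in HD-het, and 0.122, 0.109 and 0.117 in HD-homo cells. The Col11a1 to Col5a2 ratio, of chains that can share hybrid molecules, was 0.0902 ± 0.00439 (SD, n = 3) for control, 45.1 ± 9.52 for HD-het and 0.00381 ± 0.000593 for HD-homo cells. These ratios moved over orders of magnitude between lines.

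The other ratios spanned a smaller range, for pairs encoded side by side and for Col6a3 to Col6a1. Col4a1 to Col4a2 was at 1.5 ± 0.118 for control, 1.5 ± 0.0578 for HD-het and 1.27 ± 0.118 for HD-homo cells (SD, n = 3). Col6a1 to Col6a2 was at 2.07 ± 0.0473, 1.15 ± 0.0337 and 1.21 ± 0.0612 in the same order. The X-linked pair Col4a5 to Col4a6 differed more, with 2.38 ± 0.0787, 3.78 ± 0.567 and 16.9 ± 3.99. For Col6a3 to Col6a1, which lie on different chromosomes, the values were 0.0983 ± 0.0237, 0.429 ± 0.0449 and 0.0609 ± 0.0107. Of 21 comparisons of 7 ratios, 18 had no overlap. The exact two-sided permutation p was 0.10 in these, the smallest possible, or 0.117 after Benjamini-Hochberg adjustment, so no ratio could pass 0.05 in this design. Ratios of Col8a1 to Col8a2 and of Col9a1 to Col9a2 are not given, since a library had under 30 counts.

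**Figure D3:**
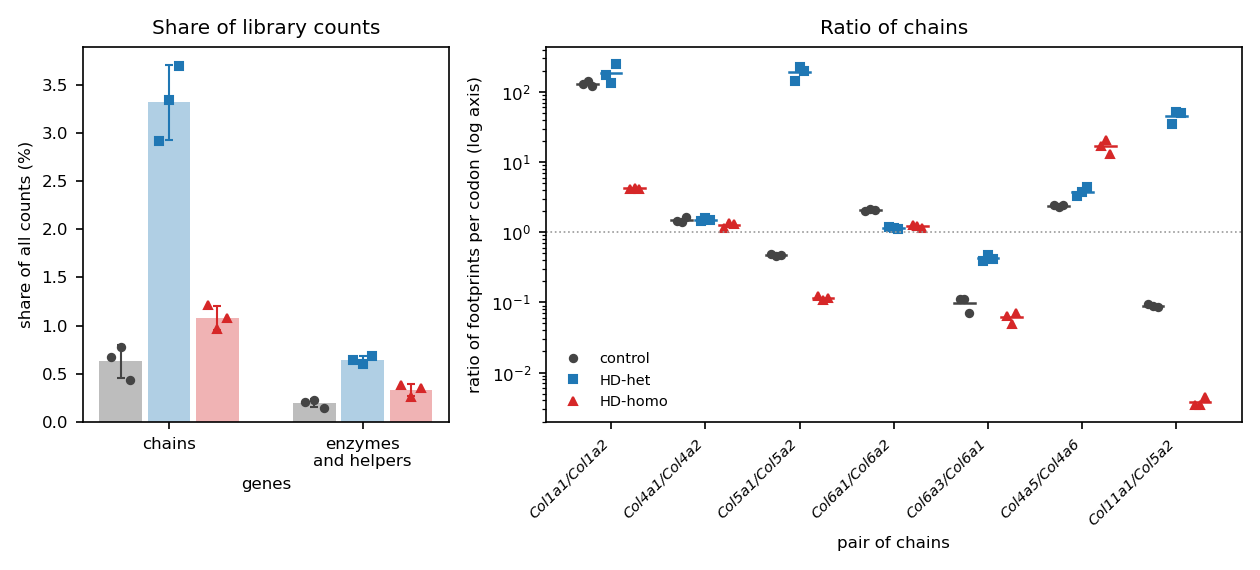
Left, share of all counts in percent on chains and on enzymes and helpers, with bars at the mean, error bars of 1 SD and 1 point per library. Right, ratio of footprints per codon (log axis) for 7 pairs of chains, with 1 point per library, a short line at the mean and a dotted line at 1; Col5a1/Col5a2 is at 145 to 229 in HD-het and under 1 in the other lines.

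Network-forming chains make sheets, above all type IV collagen, the scaffold of basement membranes. All 9 were tested: 7 were higher in HD-het against control, 2 were higher and 6 lower in HD-homo against control, and 1 was higher and 8 lower in HD-homo against HD-het. Col4a1 had 363, 387 and 258 CPM in control, 1527, 1541 and 2360.0 in HD-het, and 189.6, 129 and 182 in HD-homo cells. The lines did not overlap. Col4a2, its partner in the same molecule, had 256, 281 and 162 CPM in control, 1073, 1005 and 1619 in HD-het, and 171, 97.5 and 141 in HD-homo cells. Both rose in HD-het, by 2.43 ± 0.22 (adjusted p = 4.25e-06) and 2.40 ± 0.26 (adjusted p = 1.66e-05). Both were lower in HD-homo cells against control, Col4a1 by -1.01 ± 0.21 (adjusted p = 0.00222) and Col4a2 by -0.77 ± 0.25 (adjusted p = 0.0266). The call for Col4a2 was lost in 5 settings, with adjusted p between 0.0598 and 0.0999, among them without control replicate 1 (0.0739), control replicate 2 (0.0999), HD-homo replicate 2 (0.0816) and HD-homo replicate 3 (0.0598). The annotated spans of Col4a1 (11198423 to 11312889) and Col4a2 (11312805 to 11449287) on chromosome 8 overlap by 85 bases, and the use of strand in the counting is not given in the sources used here.

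Of the X-linked type IV chains, Col4a6 was the lower in HD-homo cells. Col4a5 was at 41.9, 45.4 and 30.9 CPM in control, 119, 152 and 115 in HD-het, and 26.2, 26.2 and 25.0 in HD-homo cells. Col4a6 was at 17.2, 19.9 and 12.8 CPM in control, 36.9, 40.5 and 26.3 in HD-het, and 1.53, 1.26 and 1.95 in HD-homo cells. The lines did not overlap for either gene. Against control, Col4a5 changed by 1.71 ± 0.15 in HD-het (adjusted p = 3.23e-06) and -0.61 ± 0.15 in HD-homo cells (adjusted p = 0.00545), and Col4a6 by 1.06 ± 0.19 (adjusted p = 0.000552) and -3.41 ± 0.24 (adjusted p = 5.43e-07). They sit 1274 bases apart on the X chromosome.

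Col4a3 and Col4a4, chains of the collagen of kidney and ear basement membranes, were low everywhere. Col4a3 had line means of 1.94 CPM for control, 1.47 for HD-het and 0.141 for HD-homo cells, a change of -3.87 ± 0.53 in HD-homo against control (adjusted p = 0.000125). Col4a4 held 79, 153 and 64 counts in control, 113, 140 and 115 in HD-het, and 1, 0 and 0 in HD-homo cells. With 1 count in HD-homo cells, control was 264 times (95% counting interval 47.1 to 10474) and HD-het 372 times (66.3 to 14713) the HD-homo level, with adjusted p = 3.18e-07 and 8.01e-08. The single count lay in HD-homo replicate 1. Without that library Col4a4 was at 0 in HD-homo cells (adjusted p = 1.06e-05 against control and 2.81e-06 against HD-het). Col4a4 was called higher in HD-het against control by 0.56 ± 0.21 (adjusted p = 0.0354), a call lost in 6 settings, such as without control replicate 3 (0.42, adjusted p = 0.134), control replicate 1 (0.54, 0.0975), HD-het replicate 1 (0.58, 0.0703) or HD-het replicate 3 (0.40, 0.148). The spans of these genes overlap by 114 bases on chromosome 1.

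Col8a1, of the type VIII collagen of vessel walls and Descemet's membrane, was at 39.7, 43.2 and 29.6 CPM in control, 67.0, 71.3 and 66.2 in HD-het, and 42.5, 27.6 and 31.9 in HD-homo cells. It was higher by 0.86 ± 0.16 in HD-het (adjusted p = 0.000873), while HD-homo overlapped control (-0.14 ± 0.16, adjusted p = 0.520). Its partner Col8a2 had line means of 0.201, 2.28 and 0.947 CPM and was higher in both mutant lines, by 3.43 ± 0.29 (adjusted p = 3.10e-06) and 2.14 ± 0.32 (adjusted p = 0.000238). Col10a1, a chain of hypertrophic cartilage, had 3, 1 and 1 counts in control, 6, 6 and 8 in HD-het, and 39, 18 and 93 in HD-homo cells. HD-homo was 33.6 times (95% counting interval 14.1 to 105) the control level (adjusted p = 0.000757). HD-homo replicate 3 held most of these counts, and without it the fitted log2 change was 3.99 instead of 5.05 (adjusted p = 0.000238). Part of Col10a1 lies within the span of Nt5dc1.

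Type VI collagen forms beaded microfilaments around cells. Its 3 tested chains rose in both mutant lines against control, and the other 3 (Col6a4, Col6a5 and Col6a6) held at most 2 counts in any library. Col6a1 was at 114, 121 and 72.2 CPM in control, 369, 329 and 396 in HD-het, and 1166, 911 and 1184 in HD-homo cells. Col6a2 was at 56.8, 57.6 and 35.4 CPM in control, 314, 290.0 and 356 in HD-het, and 924, 753 and 1037 in HD-homo cells. For both, the lines did not overlap and HD-homo was the highest. Against control, Col6a1 rose by 1.83 ± 0.18 (adjusted p = 8.16e-06) in HD-het and 3.41 ± 0.19 (adjusted p = 8.95e-08) in HD-homo cells. Col6a2 rose by 2.68 ± 0.19 (adjusted p = 7.99e-07) and 4.18 ± 0.20 (adjusted p = 2.52e-08). On chromosome 10 they lie 85161 bases apart, at 76708792 to 76726044 (Col6a1) and 76595756 to 76623630 (Col6a2), and their promoters are printed above.

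Col6a3, the longest of the type VI chains, was highest in HD-het instead. It had 40.9, 43.5 and 16.4 CPM in control, 459, 503 and 534 in HD-het, and 235, 144 and 267 in HD-homo cells. The rise was 3.89 ± 0.34 (adjusted p = 3.70e-06) in HD-het and 2.68 ± 0.32 (adjusted p = 4.54e-05) in HD-homo cells, and the difference between them was -1.21 ± 0.30 (adjusted p = 0.00420). Col6a3 is on chromosome 1, away from the other chains.

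Fibril-associated chains sit on the surface of fibrils. Of 9, 3 were tested, and all 3 rose in HD-het against control and fell in HD-homo against HD-het. Col12a1 had 557, 630.4 and 293 CPM in control, 6791, 7902 and 10412 in HD-het, and 413, 275 and 446 in HD-homo cells. HD-het was far above the others, with a log2 change of 4.08 ± 0.30 (adjusted p = 1.16e-06), and control and HD-homo overlapped (-0.39 ± 0.27, adjusted p = 0.265, or -0.65 and 0.0292 without control replicate 3). Summed with the other chains of this kind it made a level of 8490.1 CPM in HD-het, next to the fibrillar chains with 21124 CPM.

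Col14a1 showed the largest rise of any tested member in HD-het against control. It was at 0.535, 0.452 and 0.301 CPM in control, 33.1, 29.4 and 47.7 in HD-het, and 0.25, 0.268 and 0.665 in HD-homo cells. Its log2 change was 6.39 ± 0.29 (adjusted p = 3.95e-08) in HD-het. For HD-homo cells it was -0.22 ± 0.48 (adjusted p = 0.740, with 0.07 without HD-homo replicate 1). Col16a1 was at 33.6, 35.5 and 22.9 CPM in control, 77.8, 72.9 and 100.3 in HD-het, and 59.5, 50.0 and 45.6 in HD-homo cells. Its lines did not overlap, and it rose by 1.44 ± 0.18 (adjusted p = 3.78e-05) and 0.75 ± 0.17 (adjusted p = 0.00455). Part of its span is shared with Gm12963.

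Col15a1 and Col18a1 are the multiplexins of basement membranes, and the C-terminal fragment of Col18a1 is endostatin. Col18a1 had 329, 355 and 236 CPM in control, 128, 122 and 90.8 in HD-het, and 48.8, 44.4 and 38.3 in HD-homo cells. It was the only one of the 46 tested members called lower in both mutant lines, by -1.43 ± 0.17 (adjusted p = 3.00e-05) in HD-het and -2.80 ± 0.18 (adjusted p = 2.58e-07) in HD-homo cells, and the 3 lines did not overlap. Col15a1 had 1.07, 1.02 and 0.451 CPM in control, 11.4, 12.4 and 9.60 in HD-het, and 2.48, 0.841 and 3.10 in HD-homo cells. It rose by 3.68 ± 0.38 in HD-het (adjusted p = 1.11e-05). Its call in HD-homo cells (1.30 ± 0.42, adjusted p = 0.0246) was lost in 5 settings, with adjusted p between 0.0533 and 0.0923, among them without control replicate 3 (0.0747), HD-homo replicate 1 (0.0804) or HD-homo replicate 3 (0.0923).

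Col7a1, of the anchoring fibrils beneath epithelia, was at 33.1, 37.0 and 25.1 CPM in control, 97.6, 108 and 124 in HD-het, and 9.82, 7.38 and 8.03 in HD-homo cells. It rose by 1.79 ± 0.15 (adjusted p = 3.25e-06) and fell by 1.91 ± 0.16 on the log2 scale (log2 fold change -1.91, adjusted p = 2.86e-06), without overlap. Of the low chains, Col17a1 had line means of 0.424, 1.83 and 0.647 CPM and rose in HD-het by 2.07 ± 0.26 (adjusted p = 4.59e-05). Col28a1 had 0.128, 0.620 and 2.08 CPM and rose by 2.27 ± 0.38 (adjusted p = 0.000381) and 3.98 ± 0.33 (adjusted p = 1.99e-06). Col23a1, Col24a1 and Col27a1 were tested at under 1 CPM and called higher in HD-het cells (adjusted p = 0.00732, 0.000383 and 0.00715). Col24a1 held 4, 5 and 3 counts in control, 15, 16 and 15 in HD-het, and 2, 2 and 2 in HD-homo cells. Col27a1 held 9, 16 and 3, then 18, 30 and 19, then 6, 1 and 3. Both passed the filter on low counts largely through HD-het, where they were high, so these calls are no separate support for a rise. Of these, Col23a1 was also higher in HD-homo cells (adjusted p = 0.0178). The 12 untested members were Col9a1, Col9a2, Col9a3, Col13a1, Col19a1, Col20a1, Col22a1, Col25a1, Col26a1, Col6a4, Col6a5 and Col6a6, and 5 members had at most 3 counts in every library.

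**Figure D4:**
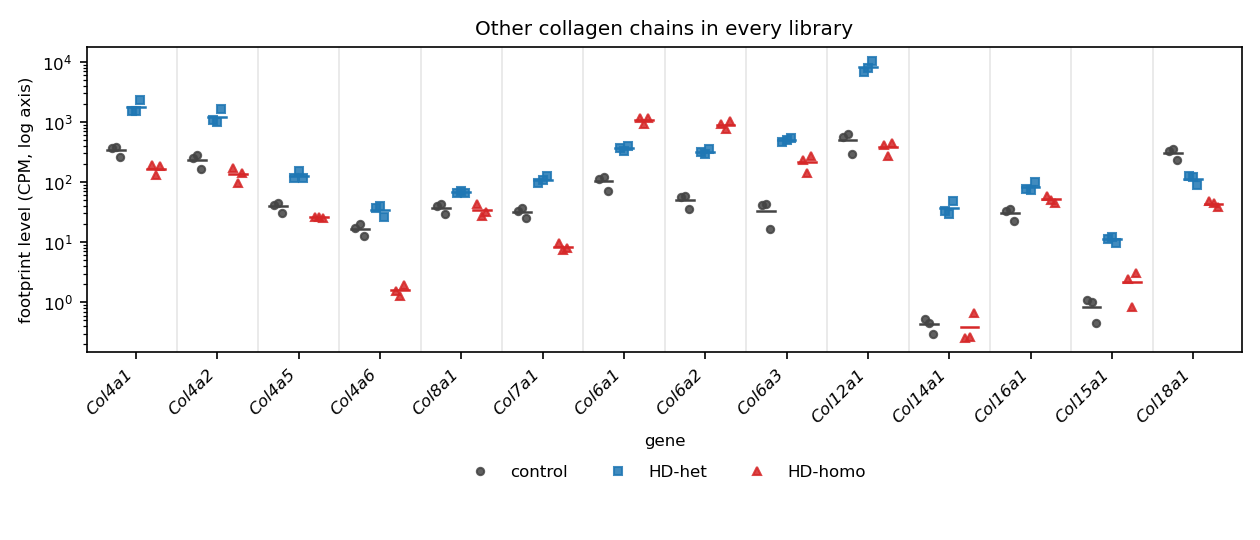
Footprint level (CPM, log axis) of the 14 other chains with a mean of at least 10 CPM in a line, with 1 point per library and a line at the mean of the 3 libraries. Col6a1 and Col6a2 are highest in HD-homo, Col18a1 in control (236 to 355 CPM) and the other 11 chains in HD-het.

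The hydroxylases act on the chains inside the endoplasmic reticulum, where 4-hydroxyproline stabilises the helix and hydroxylysine prepares crosslinks. P4ha1 was at 166, 175 and 116 CPM in control, 289, 283 and 332 in HD-het, and 150.1, 115 and 139 in HD-homo cells. HD-het was above the others (0.98 ± 0.15, adjusted p = 0.000191), and HD-homo overlapped control (-0.18 ± 0.15, adjusted p = 0.357, or -0.34 and 0.0464 without control replicate 3). P4ha2 was at 25.9, 28.0 and 21.6 CPM in control, 38.5, 35.6 and 52.2 in HD-het, and 76.7, 66.8 and 72.7 in HD-homo cells. It was highest in HD-homo, with rises of 0.74 ± 0.15 (adjusted p = 0.00114) and 1.52 ± 0.15 (adjusted p = 7.74e-06). P4ha3 was at 6.07, 5.57 and 4.59 CPM in control, 16.5, 19.0 and 17.9 in HD-het, and 10.8, 7.11 and 15.6 in HD-homo cells, with rises of 1.71 ± 0.23 (adjusted p = 7.81e-05) and 1.04 ± 0.23 (adjusted p = 0.00374). Between the mutant lines it differed by -0.68 ± 0.22 (adjusted p = 0.0177), or 0.0595 without HD-het replicate 2.

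The lysyl hydroxylases differed from each other. Plod2, which hydroxylates lysines of the telopeptides, was at 112, 124 and 84.4 CPM in control, 444, 511 and 519 in HD-het, and 59.8, 59.1 and 54.5 in HD-homo cells. It was higher in HD-het (2.20 ± 0.13, adjusted p = 2.58e-07) and lower in HD-homo cells (-0.88 ± 0.13, adjusted p = 0.000193), with no overlap of lines. Plod1 was at 78.1, 85.7 and 52.6 CPM in control, 235, 213 and 268 in HD-het, and 108, 76.2 and 92.2 in HD-homo cells, and rose in HD-het (1.73 ± 0.18, adjusted p = 1.24e-05) with an adjusted p of 0.125 in HD-homo cells (0.35 ± 0.18). Plod3, which also glycosylates hydroxylysine, was at 119, 122 and 88.0 CPM in control, 199, 188 and 253 in HD-het, and 237, 146 and 238 in HD-homo cells. It was higher in both mutant lines, by 0.96 ± 0.19 (adjusted p = 0.00133) and 0.91 ± 0.19 (adjusted p = 0.00265), and these overlapped (-0.04 ± 0.19, adjusted p = 0.853). Plod3 shares part of its span with Znhit1.

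Serpinh1 was at 557, 557 and 401 CPM in control, 1335, 1098 and 1553 in HD-het, and 544, 402 and 496 in HD-homo cells. The chaperone was higher in HD-het (1.39 ± 0.16, adjusted p = 3.01e-05) and overlapped between HD-homo and control (-0.07 ± 0.16, adjusted p = 0.750). Bmp1, the proteinase that removes the C-terminal propeptide, was at 59.5, 63.6 and 35.4 CPM in control, 119, 123 and 184 in HD-het, and 39.0, 27.3 and 29.9 in HD-homo cells. It rose by 1.42 ± 0.23 in HD-het (adjusted p = 0.000299). Its change of -0.72 ± 0.23 in HD-homo cells (adjusted p = 0.0259) lost the call in 5 settings, with adjusted p between 0.0511 and 0.101, among them without control replicate 1 (0.0795), control replicate 2 (0.101), HD-homo replicate 2 (0.0776) or HD-homo replicate 3 (0.0784). Pcolce, which enhances that cleavage, was at 641, 679.8 and 443 CPM in control, 1000.1, 982 and 1148 in HD-het, and 974, 677 and 779 in HD-homo cells. It rose by 0.83 ± 0.17 in HD-het (adjusted p = 0.00127).

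For Pcolce in HD-homo cells the calls depended on the setting. Against control the change was 0.46 ± 0.17 (adjusted p = 0.0405), and 9 settings gave an adjusted p between 0.0526 and 0.153, among them leaving out control replicate 3 (0.130) or HD-homo replicate 1 (0.153). Leaving out control replicate 1 (0.0611), HD-homo replicate 3 (0.0668) or HD-het replicate 1, 2 or 3 (0.0638, 0.0630 and 0.0526) also lost it. Against HD-het the change was -0.36 ± 0.17 (adjusted p = 0.0704), and it passed without control replicate 3 (0.0266) or HD-homo replicate 1 (0.0194).

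Lysyl oxidases start the covalent crosslinks of collagen and elastin. Of 5, 4 were higher and 1 lower in HD-het against control, and 3 were higher and 1 lower in HD-homo against control. Lox itself was at 138, 154 and 67.5 CPM in control, 2489, 2263 and 2639 in HD-het, and 1214, 654 and 1246 in HD-homo cells. The lines did not overlap, and it rose by 4.36 ± 0.33 (adjusted p = 1.26e-06) in HD-het and 3.12 ± 0.31 (adjusted p = 9.33e-06) in HD-homo cells, the largest rises among the 14 enzymes and helpers chosen by the rule. Loxl1, which acts on elastin, was at 28.5, 33.1 and 15.9 CPM in control, 125, 134 and 140.1 in HD-het, and 137, 84.8 and 124 in HD-homo cells. It rose by 2.36 ± 0.24 (adjusted p = 1.11e-05) and 2.15 ± 0.24 (adjusted p = 2.47e-05), and the mutant lines overlapped (adjusted p = 0.437).

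By their means Loxl2 and Loxl3 were highest in HD-het and lowest in HD-homo cells, and Loxl4 had the reverse order. Loxl2, which crosslinks type IV collagen, was at 98.7, 106 and 56.1 CPM in control, 129, 128 and 144 in HD-het, and 24.2, 14.3 and 12.8 in HD-homo cells. It fell by 2.34 ± 0.26 on the log2 scale in HD-homo cells (log2 fold change -2.34, adjusted p = 2.61e-05). Its rise of 0.62 ± 0.25 in HD-het (adjusted p = 0.0472) was lost in 6 settings, with adjusted p between 0.0625 and 0.150, the highest without control replicate 3; the others were without control replicate 1 (0.0625), HD-het replicates 1, 2 and 3 (0.0886, 0.0931 and 0.126) and with GC and length offsets (0.0964). Loxl3 was at 29.2, 30.2 and 17.1 CPM in control, 38.2, 37.1 and 70.4 in HD-het, and 22.8, 9.18 and 19.0 in HD-homo cells. Its rise of 0.92 ± 0.34 in HD-het (adjusted p = 0.0331) was lost in 5 settings, among them without HD-het replicate 3 (0.177), control replicate 3 (0.113) or control replicate 1 (0.0537), and its span is shared in part with Htra2. Loxl4 was at 59.4, 63.2 and 37.4 CPM in control, 21.1, 19.0 and 20.7 in HD-het, and 209, 118 and 164 in HD-homo cells. It fell in HD-het (-1.40 ± 0.22, adjusted p = 0.000230) and rose in HD-homo cells (1.62 ± 0.21, adjusted p = 9.12e-05), with no overlap, the order that Col5a2 also had.

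**Figure D5:**
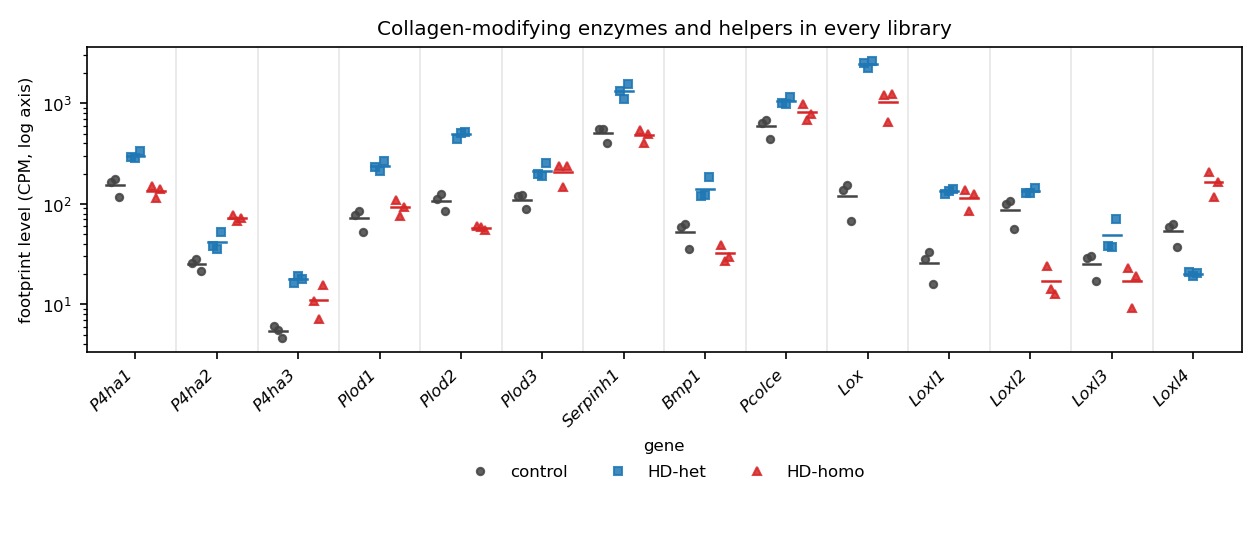
Footprint level (CPM, log axis) of the 14 enzymes and helpers, with 1 point per library and a line at the mean of the 3 libraries. Loxl4 is lowest and Plod2 highest in HD-het, and Loxl2 is at 12.8 to 24.2 CPM in HD-homo cells, under all libraries of the other lines.

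Collagen partners outside the rule came from a list of 52 genes written from general knowledge, with earlier results of these data known. Of 44 tested, 34 were higher and 4 lower in HD-het against control, with a median log2 fold change of 0.97. In HD-homo against control 20 were higher and 6 lower (median 0.29), and in HD-homo against HD-het 10 were higher and 26 lower (median -0.80). Over all tested genes the median was 0.02 in each comparison. Of all tested genes, 31.0% were called higher and 29.1% lower in HD-het against control. The shares were 23.3% and 22.3% in HD-homo against control, and 34.6% and 32.8% in HD-homo against HD-het. They stand beside the counts of the smaller lists below too. Of the 12 tested genes for folding, hydroxylation and glycosylation in the endoplasmic reticulum, 12 were higher in HD-het against control (median 0.91), and 10 were lower in HD-homo against HD-het. For export, 5 of 9 were higher and 1 lower in HD-het, with a median of 0.42. For propeptide cleavage, 3 of 5 were higher and 1 lower in HD-het, and 2 of 5 were higher in HD-homo cells against control. For fibril assembly the counts were 7 of 10 higher and 1 lower in HD-het, and 6 higher and 2 lower in HD-homo cells. For receptors and uptake they were 7 of 8 higher and 1 lower, and 4 higher and 3 lower.

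Of 23 partners that met the rule for naming, the 8 with the largest changes moved in different orders. Bgn, which encodes the proteoglycan biglycan, was at 10.6, 9.61 and 10.9 CPM in control, 2383, 2370.2 and 2828 in HD-het, and 1326, 717 and 1065 in HD-homo cells. It rose by 7.93 ± 0.24 (adjusted p = 2.11e-09) and 6.65 ± 0.23 (adjusted p = 2.57e-09). Aspn (asporin, of the same family) was at 0.535, 0.50 and 0.150 CPM in control, 2.35, 2.34 and 1.37 in HD-het, and 117, 168 and 129.7 in HD-homo cells. It was thus high in HD-homo cells, by 8.39 ± 0.29 against control (adjusted p = 2.57e-09). Fmod (fibromodulin) was highest in HD-het and lowest in HD-homo cells, at 3.13, 3.95 and 2.03 CPM in control, 46.6, 43.1 and 40.6 in HD-het, and 1.17, 0.612 and 1.82 in HD-homo cells. Its change was 3.81 ± 0.25 in HD-het (adjusted p = 5.30e-07) and -1.39 ± 0.31 in HD-homo cells (adjusted p = 0.00363).

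Proteases and receptors were among the others. Tll1, a relative of Bmp1, was at 4.01, 4.71 and 2.52 CPM in control, 146, 154 and 171 in HD-het, and 16.7, 7.11 and 15.5 in HD-homo cells, with rises of 5.36 ± 0.31 (adjusted p = 2.01e-07) and 1.78 ± 0.29 (adjusted p = 0.000468). Adamts2, which removes the N-terminal propeptide, was at 0.535, 0.809 and 0.527 CPM in control, 12, 10.1 and 20.3 in HD-het, and 0.779, 0.727 and 0.843 in HD-homo cells. Its rise in HD-het was 4.43 ± 0.30 (adjusted p = 6.25e-07). Creb3l1, a transcription factor of the secretory pathway, was at 10.8, 10.6 and 8.58 CPM in control, 94.6, 91.3 and 95.3 in HD-het, and 10.9, 9.56 and 13.0 in HD-homo cells. HD-het stood above both others by 3.22 ± 0.13 against control (adjusted p = 1.49e-08). The collagen receptors had different high lines. Itga1 was at 3.40, 3.73 and 1.39 CPM in control, 105, 107 and 88.1 in HD-het, and 2.64, 2.37 and 6.03 in HD-homo cells, with a rise of 5.11 ± 0.35 in HD-het (adjusted p = 7.42e-07). Ddr2 was at 3.67, 3.76 and 4.14 CPM in control, 2.73, 1.98 and 3.03 in HD-het, and 81.0, 70.5 and 72.5 in HD-homo cells, with 4.28 ± 0.14 in HD-homo against control (adjusted p = 1.78e-09).

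Markers of other cell types differed between the lines too, not always in the direction of the members. The summed level of the 10 fibroblast or mesenchyme markers ran from 170.2 to 208 CPM for control, 458 to 572 for HD-het and 399.8 to 532 for HD-homo cells. Of these, Pdgfrb had means of 45.9, 354 and 56.3 CPM and Pdgfra of 3.81, 6.85 and 155 CPM, so that the former was highest in HD-het and the latter in HD-homo cells. Fbln1 had means of 0.375, 21.8 and 53.1 CPM. Prrx1 (88.4, 61.4 and 110.1 CPM) and Twist2 (34.9, 27.1 and 39.0 CPM) were lowest in HD-het, so the higher sum in HD-het lay mostly in Pdgfrb. The 6 mural or contractile markers summed to 4353 to 5109.5 CPM for control, 10875 to 12947 for HD-het and 316 to 546 for HD-homo cells, with Acta2 (smooth muscle actin) at means of 4100.2, 8388 and 268 CPM. In HD-homo cells this sum was below that of control, while the members' share of counts was above it. In these lists 7, 8 and 8 of 10 and 5, 5 and 5 of 6 markers exceeded 3 counts in a library of control, HD-het and HD-homo cells. Their part in the results was not tested. Endothelial markers summed to at most 2.36 CPM, and Pecam1 was at 0 in all control and HD-het libraries and at most 0.139 CPM in HD-homo cells. Oligodendrocyte and microglia markers summed to at most 1.11 and 1.46 CPM and astrocyte markers to at most 14.0 CPM. The 10 striatal neuron markers summed to 43.9 to 50.6, 47.0 to 51.0 and 67.7 to 75.3 CPM in the same order of lines, and the 9 neural precursor markers to 9601 to 9868, 8998 to 9826 and 6020.1 to 6551 CPM. Most of the precursor sum lay in Vim (means 9231, 8277 and 6198 CPM). The sum thus does not show the low Nes, Sox2 and Pax6 of HD-homo cells. Dcn is in the fibroblast list and in the partner list.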

How the data were processed

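Ribosome-protected fragments of 26 to 32 nt were sequenced from 3 libraries of each line. The authors deposited raw counts of footprints per gene symbol, not normalized. The submitters' processing notes name cutadapt, Bowtie 1.0.1 and the mm10 build, and the counting program, its annotation and its use of strand are not given in the sources used here. A footprint count follows both mRNA level and translation, and no ratio to mRNA was formed here.

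Genes were filtered with filterByExpr, which left 12678 genes, scaled by TMM and tested in edgeR 4.0.16 (R 4.3.3) by its quasi-likelihood F test, in 1 fit of all 9 libraries, with Benjamini-Hochberg adjustment over all tested genes and a threshold of 0.05. SE is the absolute log2 fold change over the root of F. Totals of 22504543 to 41888701 set the precision. The p-values measure the spread between libraries of 1 line per genotype. Members with a mean of at least 10 CPM in a line are given in every library, those between 1 and 10 CPM by line means, and others by count. A partner was named at 10 CPM and a 2-fold change past the threshold, at most 8. Members and lists were chosen with earlier results of these data known. Families of chains are textbook classes. Ratios per codon used the longest coding sequence of GENCODE for mm10. The gene spans, the gaps between genes and the annotation overlaps are from RefSeq.

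Of the 36410 rows, 26 carried a date as symbol (0.252% of counts) and 283 an older symbol, none of them a member. Alternatives were other scaling, filters, thresholds, fewer libraries, a replicate block, DESeq2 1.42.0 and, chosen after seeing the data, leaving out rows under older symbols and offsets for GC content and length (96.9% of tested genes had both).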

Additional observations from a re-analysis of the deposited data

How the results depend on the processing

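Of 129 changes of the members given by library values or line means (those of Col23a1, Col24a1 and Col27a1 were not followed), 110 kept their direction and their side of the threshold in every alternative run, and 8 of 111 called changes lost the call in at least 1, as given beside them in the report. Over the fits that left out 1 library, 39 to 42 members were higher and 3 lower in HD-het against control, 16 to 21 higher and 10 to 16 lower in HD-homo against control, and 8 higher and 33 to 35 lower in HD-homo against HD-het. A difference among lines was called for 46 to 47 members, 18 to 19 ratio comparisons had no overlap, and the share of all counts was 0.734% to 0.940% in control, 3.75% to 4.16% in HD-het and 1.33% to 1.51% in HD-homo cells. Without Col1a1, the most abundant member, the shares were 0.487%, 2.36% and 0.948%. Small changes that were not called turned sign. Plod3 in HD-homo against HD-het was 0.03 with library totals only and 0.03 with GC and length offsets, and ran from -0.15 to 0.16 over the fits without 1 library. In HD-homo against control, Col11a2 ran from -0.24 to 0.59, Col14a1 from -0.73 to 0.07 and Serpinh1 from -0.21 to 0.04 over these fits. The cause was not tested. Same-numbered libraries of different lines had correlations of deviations between -0.356 and 0.175, and differently numbered ones between -0.275 and 0.376. No pairing by replicate number was seen, but so few libraries per line cannot exclude it. With the replicate block, 40 members were higher and 3 lower in HD-het against control, 17 and 11 in HD-homo against control, and 8 and 34 in HD-homo against HD-het, and the call changed for 6 of 129 member changes. DESeq2 gave 43 and 3, 20 and 13, and 8 and 35 in the same order. The 12 untested members were left out by the filter on low counts. Without a filter, 46 members were higher and 3 lower in HD-het against control, and 20 and 13 in HD-homo against control. In HD-homo against HD-het, 8 were higher and 38 lower, and a difference among lines was called for 51 members.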
